A study of Mus musculus with 2 samples.

Results

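The colony-stimulating factor 1 receptor, its ligands and the related receptors of granulocyte-macrophage and granulocyte colony-stimulating factor were followed in single brain immune cells of control and Arpc4ΔCx3cr1 mice. The 7 genes were chosen by symbol from the 32285 genes of the expression tables and are Csf1r, Csf1, Il34, Csf2ra, Csf2rb, Csf2rb2 and Csf3r. Controls were Arpc4 fl/fl mice without Cre, and Arpc4ΔCx3cr1 mice were Tg(Cx3cr1-Cre) Arpc4 fl/fl littermates, so that mice of both groups carried the floxed alleles of Arpc4, which encodes a subunit of the Arp2/3 actin-nucleating complex. The Cre is driven by the promoter of Cx3cr1, a gene that is active in microglia and also in other mononuclear phagocytes. Viable CD45+ cells of 4 mice per genotype, all 12 weeks old, were sorted, tagged per mouse, pooled and sequenced as 1 library from the 3′ ends of their transcripts.

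CSF1R is a receptor tyrosine kinase on cells of the mononuclear phagocyte lineage, and microglia depend on signals through it for their survival. Its ligands are CSF1 and interleukin-34, of which neurons are the main source of interleukin-34 in the forebrain. The receptor of granulocyte-macrophage colony-stimulating factor pairs a specific alpha chain, encoded by Csf2ra, with the beta common chain, encoded by Csf2rb, whereas the receptor of granulocyte colony-stimulating factor is encoded by Csf3r and works as a homodimer.

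Csf1 and Csf2ra showed the largest rises of the 7 genes in microglia of Arpc4ΔCx3cr1 mice, and the bases directly upstream of both genes are given here so that the genes can be placed. Csf1 lies on the minus strand at chr3:107741048-107760469 and Csf2ra on the minus strand at chr19:61223957-61228429 (GRCm38, the assembly also called mm10). The printed stretches come from the RefSeq promoter table of GRCm38.p6, read 5′ to 3′ up to the base before the annotated gene, and cover chr3:107760470-107760719 for Csf1 and chr19:61228430-61228668 for Csf2ra. Positions of motifs are counted back from the start in the RefSeq table, which lies 11 bases inside the annotated gene for Csf2ra. Capitals mark the only matches inside these stretches to 4 motifs that were searched on both strands.
Csf1: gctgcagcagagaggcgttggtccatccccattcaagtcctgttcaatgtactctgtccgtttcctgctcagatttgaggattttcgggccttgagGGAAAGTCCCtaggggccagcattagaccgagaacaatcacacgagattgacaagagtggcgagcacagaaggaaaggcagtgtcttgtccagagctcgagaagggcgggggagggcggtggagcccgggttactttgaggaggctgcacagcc
Csf2ra: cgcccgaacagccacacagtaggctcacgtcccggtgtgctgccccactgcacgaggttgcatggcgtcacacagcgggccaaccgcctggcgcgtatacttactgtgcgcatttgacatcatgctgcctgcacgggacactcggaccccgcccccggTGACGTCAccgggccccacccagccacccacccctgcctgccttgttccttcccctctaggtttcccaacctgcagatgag

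The capitals upstream of Csf1 are the NF-kB site of the kappa light chain enhancer, read on the opposite strand, 154 bases before that start. Over all 32851 promoter windows of 250 bases, 0.140% held this motif. The capitals upstream of Csf2ra are TGACGTCA, the cyclic AMP response element, 92 bases before the RefSeq start, a motif that 1.55% of the windows held. The core of PU.1 sites, GAGGAA, which 23.3% of windows held, was found 167 bases before the RefSeq start of Csf2rb2, 14 and 8 bases before that of Csf2ra and 86 bases before that of Csf3r. The matches of Csf2ra and Csf3r lie wholly or partly inside the annotated genes, since the RefSeq start of Csf3r is 109 bases into its gene. The AP-1 site TGANTCA, present in 6.75% of windows, was found in none of the 4 promoters of these genes that the table holds. These are matches of letters only, and the motifs were chosen after the promoters had been read.

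After cells with under 200 genes or over 20% mitochondrial UMIs were left out, 19863 cells remained, 9443 of control and 10420 of Arpc4ΔCx3cr1 mice. UMIs, the molecular tags that each stand for 1 captured RNA molecule, numbered 5251527 to 11148525 on genes per control mouse and 10768644 to 12878691 per Arpc4ΔCx3cr1 mouse, and no cell barcode was shared between mice. Clusters were named from marker genes as microglia-like (17035 cells), CAM-like (413 cells, CNS-associated macrophages), monocyte-like (345 cells), T cell-like (308 cells), myeloid progenitor-like (95 cells), B cell-like (80 cells) and granulocyte-like (80 cells), and 1507 cells of clusters with few UMIs were left unnamed. All 10 microglia markers were present in the microglia-like sums and lower in every Arpc4ΔCx3cr1 mouse than in every control, with a summed level of 18903 to 19168 CPM, the UMIs of a gene per 1000000 UMIs of the sum, in controls and 7160 to 10429 CPM in Arpc4ΔCx3cr1 mice. The markers of CAMs summed to 166 to 183 CPM and 66.7 to 156 CPM in the same sums. Arpc4 itself was at 242, 224, 232 and 232 CPM in microglia of the 4 control mice and at 147, 145, 136 and 132 CPM in those of the 4 Arpc4ΔCx3cr1 mice (log2 fold change −0.63 ± 0.05 SE, adjusted p = 5.78e-06, edgeR quasi-likelihood test). These are counts of RNA, whereas the paper reports efficient loss of ARPC4 and ARPC2 protein from such microglia by flow cytometry. Ttll3 overlaps Arpc4 on the same strand, and which part of the transcript the deletion removes was not examined. Mouse 1 of the Arpc4ΔCx3cr1 group stood apart with 1384 CPM of Xist, against 3.65 to 13.3 CPM in the other 7 mice. Results of the members of this family that move without this mouse are therefore also given without it. The study names all other mice as male and left 1 female Arpc4ΔCx3cr1 mouse out of its own analysis. The labels do not say which one it was, but the high Xist marks mouse 1 as the likely one. Mouse 1 is kept in the main fits here, so sex and genotype are not fully separated in them.

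In microglia, 6 of the 7 genes had enough UMIs to be tested between genotypes. Csf1 rose 8.07-fold in its mean level, Csf2ra 2.24-fold and Csf3r 1.33-fold, Csf1r fell to 0.558 of the control mean, and Csf2rb and Csf2rb2 did not pass the test. Thus 4 of the 6 genes passed an adjusted p of 0.05, where 46.1% of all 12727 genes tested did so, 22.9% being higher and 23.2% lower in Arpc4ΔCx3cr1 mice. The levels of the same 4 genes did not overlap between the groups of mice, as was the case for 47.8% of all genes tested. Fold changes from edgeR lie 0.11 above those scaled by total UMIs on the log2 scale, and with the latter scaling all 4 genes kept their call and direction, while the numbers of all genes called higher and lower went from 2910 and 2951 to 2241 and 4264.

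**Figure D1:**
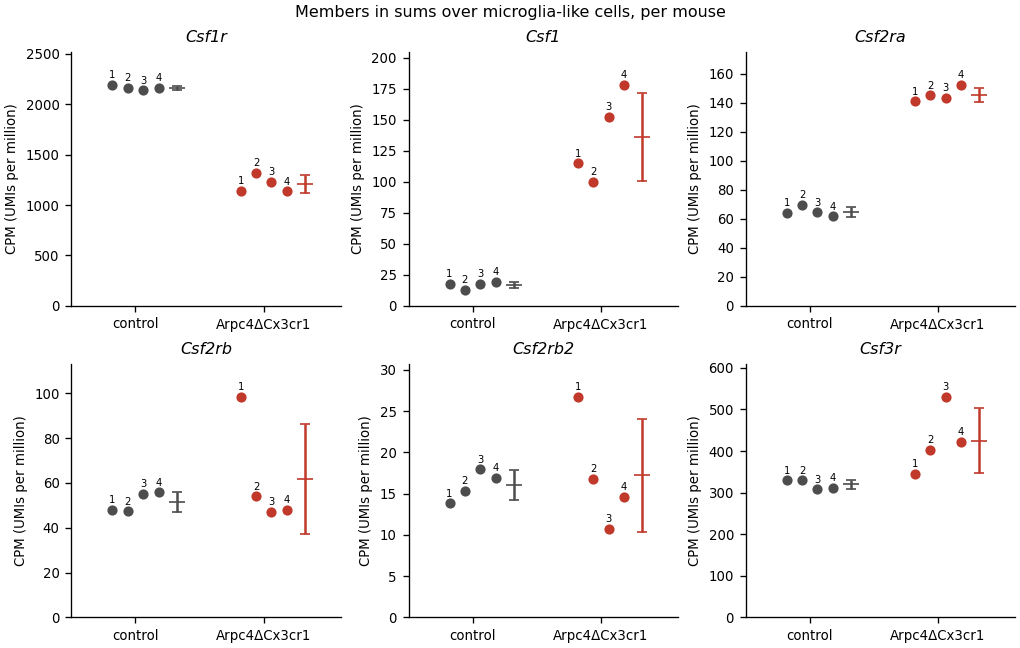
Level of each gene in CPM (y axis, linear, from 0) in the summed microglia-like cells of each mouse, with 1 point per mouse and the mean ± SD (n = 4) beside the points of each genotype. Csf1r was lower and Csf1, Csf2ra and Csf3r were higher in every Arpc4ΔCx3cr1 mouse than in every control, and 1 Arpc4ΔCx3cr1 mouse stands above the rest for Csf2rb and Csf2rb2.

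Csf1r, the receptor itself, lies on the plus strand at chr18:61100598-61132149 and is overlapped on the other strand by Hmgxb3. It was at 2189, 2163, 2136 and 2165 CPM in microglia of the control mice. In Arpc4ΔCx3cr1 microglia it was at 1140, 1319, 1232 and 1137 CPM. Each of the 4 Arpc4ΔCx3cr1 mice was thus below the lowest control by more than the spread within either group, with means of 2163 ± 21.7 and 1207 ± 87.0 CPM (SD, n = 4 mice). The log2 fold change was −0.74 ± 0.06 (SE) with an adjusted p of 2.24e-06 (edgeR), and −0.77 to −0.71 when each mouse was left out in turn. In cells thinned to 1000 UMIs each, 87.4% of control microglia (exact 95% interval 86.6 to 88.1%) and 67.8% of Arpc4ΔCx3cr1 microglia (66.9 to 68.8%) held a UMI of Csf1r. In the cells as sequenced these shares were 99.6% and 96.7%, at median depths of 3835.5 and 4283 UMIs. T cell-like cells, which should lack the receptor, held a UMI of it in 37.6% and 21.1% of cells after the same thinning, at median depths of 4979 and 4050 UMIs, which is the background read here, and whether it came from free RNA or from doublets within a mouse was not tested. All intervals cover counting error only.

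Csf1, the ligand, was at 17.6, 13.1, 17.6 and 19.2 CPM in control microglia. Levels in Arpc4ΔCx3cr1 microglia were 115, 100.2, 152 and 178 CPM, so that the lowest of these mice lay far above the highest control. The means were 16.9 ± 2.66 and 136 ± 35.4 CPM (SD, n = 4 mice). With a log2 fold change of 3.13 ± 0.20 (SE, adjusted p = 7.34e-07, edgeR), it was the largest difference among the 7 genes, and the value ran from 2.97 to 3.26 when 1 mouse was left out. After thinning to 1000 UMIs, 1.30% of control microglia (1.06 to 1.57%) and 9.87% of Arpc4ΔCx3cr1 microglia (9.27 to 10.5%) held a Csf1 UMI, and unthinned the shares were 5.01% and 31.7%. In T cell-like cells 2.26% and 4.57% did so after thinning. The share of control microglia lay within the interval of control T cell-like cells (0.468 to 6.45%). Over pooled cells, that of Arpc4ΔCx3cr1 microglia lay above the interval of Arpc4ΔCx3cr1 T cell-like cells (1.99 to 8.81%). Per mouse, however, the shares of these 2 cell types overlapped, with 7.42 to 12.2% in microglia and 0 to 7.84% in T cell-like cells.

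Il34, the other ligand of CSF1R, maps to the minus strand at chr8:110741829-110805924 and was all but absent from these sorted cells. Microglia of mice 1 and 2 of the Arpc4ΔCx3cr1 group held 2 and 3 UMIs of it, and the remaining 6 mice held none, which allows at most 0.257 to 0.715 CPM per mouse. The gene was below the filter for a test in every cell type, and none of the 1769098 droplets taken as empty held a UMI of it.

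Csf2ra, the alpha chain that binds granulocyte-macrophage colony-stimulating factor, was at 64.1, 69.7, 64.3 and 61.6 CPM in control microglia. In the 4 Arpc4ΔCx3cr1 mice it was at 141, 145, 143 and 152 CPM. Both groups were tight, with means of 65.0 ± 3.39 and 145 ± 4.80 CPM (SD, n = 4 mice), and did not overlap. Its log2 fold change of 1.27 ± 0.06 (SE) had the lowest adjusted p of the 7 genes (9.99e-08, edgeR) and lay between 1.23 and 1.30 when 1 mouse was left out. Thinned shares of microglia with a Csf2ra UMI were 6.45% (5.92 to 7.02%) and 13.6% (12.9 to 14.3%), against 21.9% and 45.5% unthinned, and were 0.752% and 5.14% in thinned T cell-like cells.

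Neither beta-chain gene passed the test. Csf2rb, which encodes the signalling chain shared with the receptors of interleukin-3 and interleukin-5, was at 47.9, 47.2, 55.0 and 55.8 CPM in control microglia. In Arpc4ΔCx3cr1 microglia it was at 98.5, 54.0, 46.9 and 47.8 CPM, so that only mouse 1 lay outside the control range on the upper side. The log2 fold change of 0.36 ± 0.22 (SE) had an adjusted p of 0.191 (edgeR) and a 95% interval of −0.06 to 0.79, and was 0.05 without that mouse. Csf2rb2, which encodes a second beta chain that is specific to interleukin-3 in mice, was at 13.8, 15.3, 17.9 and 16.9 CPM in controls. Levels in Arpc4ΔCx3cr1 mice were 26.8, 16.8, 10.7 and 14.6 CPM, again with mouse 1 above the others, and the log2 fold change of 0.20 ± 0.23 (SE, adjusted p = 0.520) turned to −0.10 without it. Thinned shares of microglia were 4.80% and 5.75% for Csf2rb and 1.58% and 1.70% for Csf2rb2.

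Both beta-chain genes lie 20030 bases apart on chromosome 15, Csf2rb on the plus strand at chr15:78325752-78353847 and Csf2rb2 on the minus strand at chr15:78282507-78305721. Their longest transcripts, of 4900 and 4740 bases, matched in 91.7% of 4617 aligned bases, and 8.19% and 8.47% of all stretches of 90 bases were shared exactly. None of the 911 such stretches in the last 1000 bases, where 3′ reads gather, was shared. How reads that fit both genes were counted was not tested, so the split between these 2 genes is uncertain.

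Csf3r, the receptor of granulocyte colony-stimulating factor, lies on the plus strand at chr4:126024550-126044440. It was at 329.9, 329.7, 308 and 312 CPM in control microglia and at 345, 402, 531 and 422 CPM in Arpc4ΔCx3cr1 microglia. The groups did not overlap, although mouse 1 lay just above the highest control, and the means were 319.7 ± 11.8 and 425 ± 77.9 CPM (SD, n = 4 mice). The log2 fold change was 0.52 ± 0.11 (SE) with an adjusted p of 0.00327 (edgeR), and it ran from 0.39 to 0.61 when 1 mouse was left out. Thinned shares of microglia with a UMI were 25.3% and 31.2%, and those of T cell-like cells 5.26% and 9.14%.

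Genes that work with these receptors were counted from lists of the pathway. Of 16 other ligands and receptors of the family, 7 were tested, of which 2 were higher and 1 was lower in Arpc4ΔCx3cr1 microglia, with a median log2 fold change of −0.11. Over all genes tested the median was −0.01, and 46.1% passed, 22.9% higher and 23.2% lower, which is the background for the count of each list. Il3ra, the alpha chain of the interleukin-3 receptor, rose from 2.06 ± 0.825 to 12.4 ± 2.45 CPM (log2 fold change 2.61 ± 0.24, adjusted p = 8.66e-06). Pdgfa, a ligand of the related receptor kinase family, rose from 38.5 to 59.6 CPM, and Kitl, the ligand of KIT, fell from 39.5 to 27.7 CPM. Csf2, Il3 and Il5, the ligands of the beta common chain receptors, had no UMI in microglia of any mouse, and Csf3 had 1.

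Of 32 genes of signalling downstream of CSF1R, 32 were tested, 8 were higher and 11 lower, with a median log2 fold change of 0.01, beside 22.9% and 23.2% of all genes. Fgr, a kinase of the Src family, rose from 11.3 ± 3.32 to 114 ± 15.8 CPM (3.43 ± 0.18, adjusted p = 2.45e-07), and Fyn, of the same family, rose from 21.3 to 51.6 CPM. Tyrobp, the adaptor DAP12, rose from 2779 to 3985 CPM. Dok3, an inhibitory adaptor, fell from 36.0 ± 2.79 to 13.1 ± 7.67 CPM (SD), with 23.8 CPM in Arpc4ΔCx3cr1 mouse 1. Its log2 fold change of −1.36 ran from −1.83 to −1.14 when 1 mouse was left out. Plcg1, a phospholipase, fell from 21.7 to 10.3 CPM, and Gab1, a docking protein, from 103 to 52.3 CPM.

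Of 15 genes of JAK-STAT signalling below the beta common chain and CSF3R, 14 were tested, 6 were higher and 1 was lower, with a median log2 fold change of 0.34. The 7 of 14 genes that passed are a share near the 46.1% of all genes. Tyk2, a kinase of the JAK family, rose from 33.7 to 42.9 CPM and Bcl2a1b, an anti-apoptotic gene, from 264 to 329 CPM, whereas Jak1 fell from 211 to 166 CPM.

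Of 14 transcription factors of Csf1r and of myeloid cells, 12 were tested with edgeR, and all 4 that passed were lower, with a median of 0.04 over the 12. The share that passed was below the 46.1% of all genes. Ets1 fell from 114 to 73.6 CPM, Fli1 from 612 to 429 CPM and Mef2c from 1726 to 1296 CPM. Spi1, the gene of PU.1 and named here after its value was seen, was the fourth, at 500.1 ± 11.1 and 382 ± 16.5 CPM (−0.28 ± 0.05, adjusted p = 0.000964). Scaled by total UMIs, the number of genes of each list that passed was within 1.5 times the number given here.

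Of 9 genes known to be induced when microglia are taken from the brain, 7 were higher and 1 was lower in Arpc4ΔCx3cr1 microglia, with a median of 1.14, beside 22.9% higher and 23.2% lower among all genes. The higher genes that are not named had low means, of 0.326 to 2.81 CPM in controls and 2.66 to 6.72 CPM in Arpc4ΔCx3cr1 mice. For 1 of them the Arpc4ΔCx3cr1 mice ranged from 2.61 to 17.6 CPM. Egr1 rose from 3.55 to 26.8 CPM and Atf3 from 27.2 to 46.0 CPM. Ier2 rose from 14.5 ± 3.27 to 30.2 ± 16.0 CPM (SD), with 52.5 CPM in Arpc4ΔCx3cr1 mouse 1. Its log2 fold change of 1.13 ran from 0.72 to 1.31 when 1 mouse was left out. Jun fell from 149 ± 9.74 to 84.9 ± 34.4 CPM (SD), with 133 CPM in Arpc4ΔCx3cr1 mouse 1. The call of Jun was lost without any 1 of 4 mice, controls 2 and 4 and Arpc4ΔCx3cr1 mice 2 and 4 (adjusted p = 0.0523 to 0.0577). The part of these genes in the differences of the cytokine receptors was not tested.

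**Figure D2:**
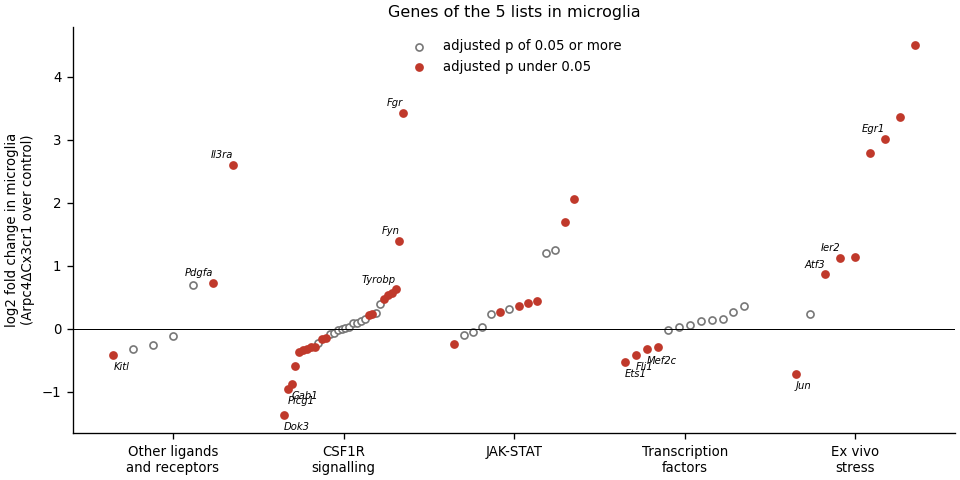
Log2 fold change in microglia of Arpc4ΔCx3cr1 over control mice (y axis) for every tested gene of the 5 lists (x axis), 1 point per gene, filled where the adjusted p was under 0.05, with the names of genes given in the text for 4 of the lists. Fgr is highest among the genes of CSF1R signalling and Dok3 is lowest, and the 4 filled transcription factors lie below 0.

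The 12 clusters that microglia formed when they were clustered again without the 7 genes were mostly of 1 genotype, so levels by cluster are given as a description. The clusters led by Csmd3 (cluster 0), by Ecscr (clusters 2 and 5) and by Crybb1 (cluster 7) drew 1.51 to 2.72% of their cells from Arpc4ΔCx3cr1 mice, with each mouse weighted equally, and the remaining 8 drew 82.5 to 99.6%. In control cells of clusters 0, 2 and 5 the mean level of Csf1 was 9.81, 10.7 and 10.7 CPM, and in those of cluster 7 the 4 mice ranged from 7.96 to 14.2 CPM. The highest level was in cluster 8, led by the chemokine genes Ccl4 and Ccl3, with 497, 344, 445 and 451 CPM in the 4 Arpc4ΔCx3cr1 mice and 225, 102, 169 and 219 CPM in the 4 controls. This cluster held 26.4% of all Csf1 UMIs of microglia and 5.73% of their UMIs of all genes.

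Control cells were few in the clusters of Arpc4ΔCx3cr1 microglia, and their Csf1 level differed between clusters. In cluster 1, led by Tafa1, the 16 to 35 control cells per mouse had 111, 56.2, 114 and 91.3 CPM of Csf1, while the Arpc4ΔCx3cr1 mice had 100.2, 113, 147 and 157 CPM and overlapped with them. The 10 and 14 control cells of cluster 10, led by interferon-induced genes such as Cxcl10, had 108 and 93.3 CPM against 138 to 169 CPM. Control cells of cluster 9 had 7.76, 31.4 and 10.9 CPM from 1 to 3 UMIs each, and those of clusters 6 (2 mice) and 11 (1 mouse) held no Csf1 UMI. In the other direction, cells of Arpc4ΔCx3cr1 mice 2 and 3 in cluster 0 had 22.4 and 12.8 CPM, from 4 and 1 UMIs. Clusters are formed on the cells' own genes, so cells of 1 cluster resemble each other by construction. The tag of the mouse was the highest of all tags in 98.9 to 99.6% of the cells of each control mouse. Whether the remaining cells were among the few control cells of these clusters was not tested.

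Not every cluster of Arpc4ΔCx3cr1 microglia had a high Csf1 level. Cluster 6, led by hemoglobin genes and by Ms4a7, a membrane protein gene of macrophages, had 34.0, 23.6, 22.0 and 40.3 CPM in the 4 mice. Cluster 9, led by Arhgap15, had 24.8, 11.2 and 5.71 CPM in the 3 mice with at least 10 cells, and 65.6% of its cells came from mouse 2. Cluster 4, led by Xist and Fn1, came to 97.5% from Arpc4ΔCx3cr1 mouse 1 and had 109.9 CPM in that mouse.

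Csf1r was highest in control cells of cluster 7 (2800 ± 154 CPM, SD, n = 4 mice) and at 2112 ± 14.7 CPM in those of cluster 0. Within cluster 8 it was at 1563, 1429, 1341 and 1509 CPM in controls and at 816, 1033, 949 and 908 CPM in Arpc4ΔCx3cr1 mice, which did not overlap. Cluster 6 had 906 ± 145 CPM in Arpc4ΔCx3cr1 mice, and cluster 1 had 1644 ± 94.2 and 1298 ± 53.1 CPM in control and Arpc4ΔCx3cr1 mice. Csf2ra was lowest in control cells of cluster 0 (48.7 ± 6.99 CPM) and highest in Arpc4ΔCx3cr1 cells of cluster 8 (196 ± 26.5 CPM), followed by cluster 3, led by Cst7 and Ttr (189.8 ± 27.5 CPM), and cluster 6 (176 ± 14.3 CPM). Csf3r was highest in cluster 1, with 483 ± 51.8 CPM in control and 563 ± 53.2 CPM in Arpc4ΔCx3cr1 cells, and lowest in cluster 11, led by Cst7 and Spp1, with 116 ± 27.2 CPM in Arpc4ΔCx3cr1 cells. The high Csf2rb of Arpc4ΔCx3cr1 mouse 1 was spread over its clusters, at 64.3 to 104 CPM in the 7 clusters with at least 10 of its cells.

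**Figure D3:**
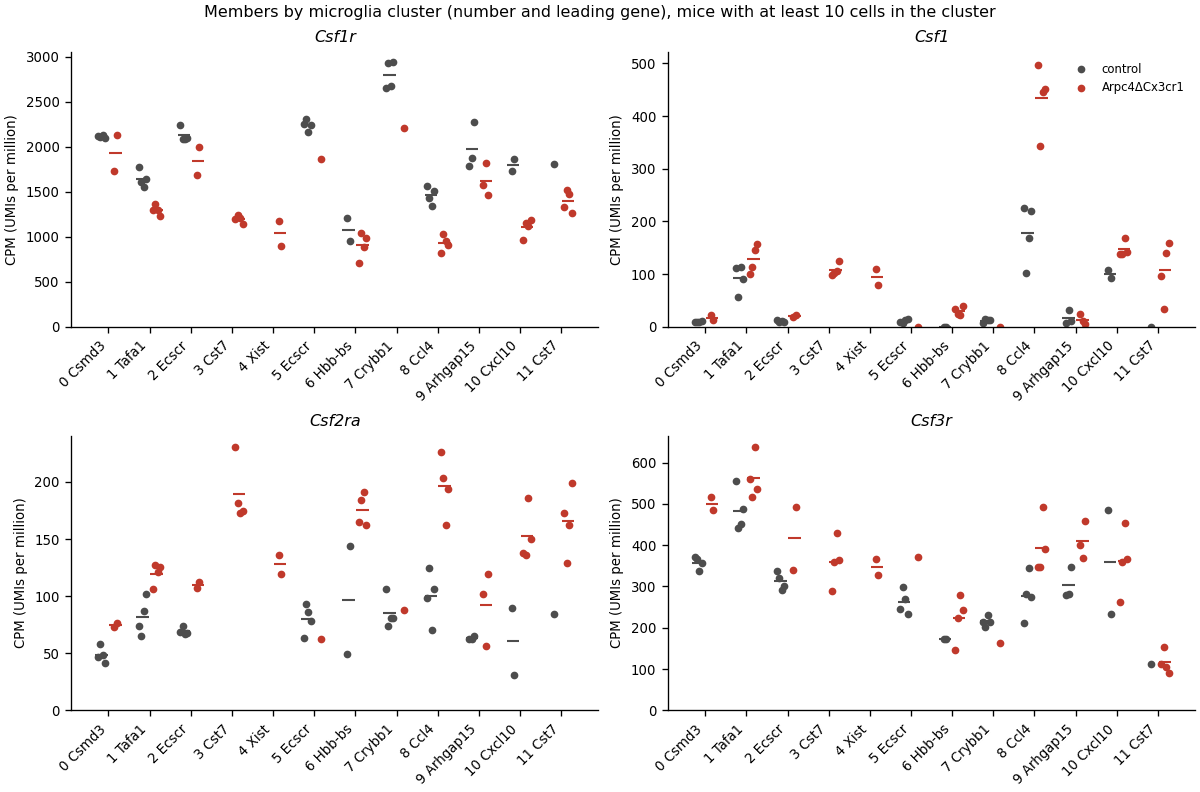
Level of the genes in CPM (y axis, linear, from 0) in each of the 12 microglia clusters (x axis, number and leading gene), with 1 point per mouse that had at least 10 cells in the cluster, colored by genotype, and bars at the means. Csf1 peaks in cluster 8, led by Ccl4, and Csf1r is highest in clusters 7 and 5, made up mostly of control cells.

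CAMs, the macrophages of the brain's borders, showed no difference in these genes that passed the test. Csf1r was at 1217, 1499, 1513 and 1402 CPM in control CAMs and at 950.2, 1561, 1069 and 1475 CPM in those of Arpc4ΔCx3cr1 mice, with overlapping groups (log2 fold change −0.16 ± 0.19, adjusted p = 0.817, edgeR). Csf2ra was at 130.1, 150.3, 77.9 and 127 CPM in controls and 79.7, 85.5, 112 and 125 CPM in Arpc4ΔCx3cr1 mice (−0.21 ± 0.27, adjusted p = 0.830). Neither group of mice stood apart for either gene. The other tested genes were Csf2rb (0.65 ± 0.35, adjusted p = 0.542) and Csf3r (0.21 ± 0.30, adjusted p = 0.846), whereas Csf1, Csf2rb2 and Il34 had too few UMIs to be tested. Control CAMs held 1, 3, 3 and 5 UMIs of Csf1 and Arpc4ΔCx3cr1 CAMs 3, 4, 2 and 0.

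Of the 4 genes tested in CAMs, 0 passed, where 29 of 3421 genes did so (0.848%), and 0 were without overlap, where 6.43% of genes tested were. None of the 4 had an unadjusted p under 0.05 with edgeR, and DESeq2 also called 0 of them. Only 22 to 112 CAMs were held per mouse, and the 95% interval of the log2 fold change ran from −0.54 to 0.23 for Csf1r and from −0.74 to 0.33 for Csf2ra. Arpc4 transcripts in CAMs were not lower in Arpc4ΔCx3cr1 mice at this depth (0.27 ± 0.21, adjusted p = 0.688). Microglia markers summed to 4521 to 5984 CPM in control and 2498 to 4276 CPM in Arpc4ΔCx3cr1 CAM sums, with 3 of 10 lower in every Arpc4ΔCx3cr1 mouse, and their part in these values was not tested. When the cells were clustered more coarsely, at resolution 0.4, the CAM-like class took in the Ms4a7-led cells, and Csf1r (−0.58, adjusted p = 0.00304) and Csf3r (0.75, adjusted p = 0.00854) passed.

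The genotype effect in CAMs was tested against that in microglia in 1 fit with the mouse as a block, in which 5.82% of 11837 genes passed and 2 of the 6 tested genes of this family did. For Csf2ra the effect in CAMs was lower than in microglia by a log2 difference of −1.53 ± 0.28 (SE, adjusted p = 3.23e-06, edgeR), by −1.74 to −1.45 when 1 mouse was left out, and by −0.71 (adjusted p = 0.00366) at resolution 0.4, where the CAM-like class takes in the Ms4a7-led cells. CAMs of the 4 Arpc4ΔCx3cr1 mice held 12, 8, 15 and 14 UMIs of Csf2ra, and its difference was not refitted with ambient RNA taken off. For Csf1 the difference was −2.25 ± 0.67 (adjusted p = 0.0188), but it rests on 21 UMIs in CAMs. It lost its call without control 2 (adjusted p = 0.0824), control 4 (0.190), Arpc4ΔCx3cr1 mouse 3 (0.0559) or mouse 4 (0.146), and without the mouse block (0.189). Csf1r, with a difference of 0.51 ± 0.21 (adjusted p = 0.168), passed only when sums were scaled by total UMIs (0.66, adjusted p = 0.0150). The remaining differences were 0.23 for Csf2rb, 0.96 for Csf2rb2 and −0.38 for Csf3r (adjusted p = 0.595 to 0.869). The effect on Arpc4 differed as well, by 0.85 (adjusted p = 0.00883), a call that was lost without 1 control mouse (adjusted p up to 0.0599).

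**Figure D4:**
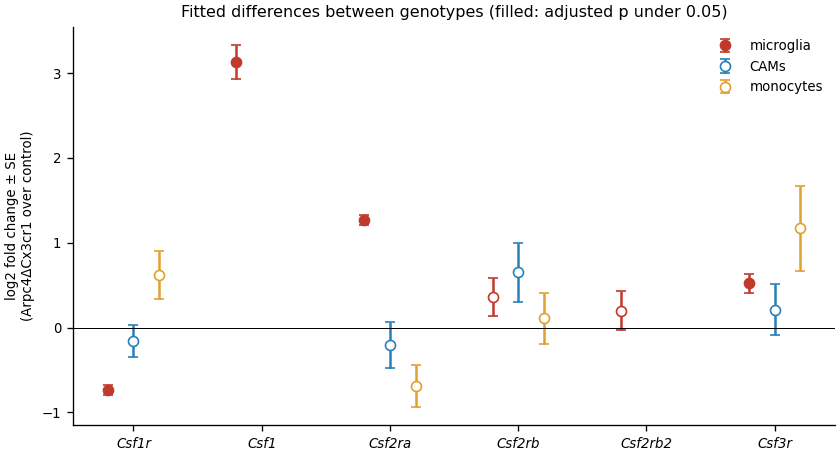
Fitted log2 fold change ± SE of Arpc4ΔCx3cr1 over control mice (y axis) for the genes (x axis) in microglia, CAMs and monocytes, filled where the adjusted p was under 0.05. In microglia the 4 filled points are Csf1r below 0 and Csf1, Csf2ra and Csf3r above 0, and no point of CAMs or monocytes is filled.

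Monocytes, which reach the brain from the blood, showed no difference past the test either. Csf1r was at 316, 356, 406 and 252 CPM in control monocytes and 486, 829, 727 and 259 CPM in Arpc4ΔCx3cr1 monocytes, of which 3 lay above all controls (0.62 ± 0.28, adjusted p = 0.238, edgeR). Csf2ra was at 133, 251, 175 and 196 CPM and at 137, 110.0, 113 and 179.9 CPM (−0.69 ± 0.25, adjusted p = 0.127). Csf3r was at 35.7, 61.5, 28.5 and 14.0 CPM and at 55.7, 169, 128 and 22.5 CPM (1.17 ± 0.50, adjusted p = 0.212). The groups overlapped for each of these genes and for Csf2rb (0.11 ± 0.30, adjusted p = 0.902).

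Of the 4 genes tested in monocytes, 0 passed, where 7.59% of 3071 genes did, and 0 were without overlap, where 15.6% of genes were, while 3 had an unadjusted p under 0.05 (Csf1r 0.0451, Csf2ra 0.0150, Csf3r 0.0362, edgeR). DESeq2 also called 0 of them. Csf1r passed without Arpc4ΔCx3cr1 mouse 4 (0.81, adjusted p = 0.0463). The makeup of the class differed between genotypes, since markers of dendritic cells summed to 826 to 1450 CPM in control and 95.2 to 449.7 CPM in Arpc4ΔCx3cr1 sums, those of monocytes to 1760 to 2507 and 2275 to 4720 CPM, and those of microglia to 861 to 2048 and 438 to 3274 CPM. Their part in the values of monocytes was not tested.

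Granulocytes, the cells in which Csf3r is best known, were held in numbers of at least 10 by only 1 mouse of each genotype, control 3 with 19 cells and Arpc4ΔCx3cr1 mouse 1 with 32, so no test was made. Csf3r was at 212 and 179 CPM in these 2 mice, Csf2ra at 127 and 151 CPM, Csf2rb at 30.3 and 110.1 CPM and Csf1r at 224 and 105 CPM. Over all granulocytes of a genotype, pooled without regard to the mouse, Csf3r was at 202 CPM (exact Poisson 95% interval 156 to 258) in 35 control cells and at 223 CPM (187 to 265) in 45 Arpc4ΔCx3cr1 cells. Csf2ra was at 123 CPM (87.5 to 168) and 139 CPM (111 to 173), Csf2rb at 85.2 CPM (56.1 to 124) and 94.0 CPM (71.0 to 122), and Csf1 at 9.47 CPM (1.95 to 27.7) and 28.5 CPM (16.6 to 45.7). These intervals cover counting error only, and the pooled intervals of each of these genes overlapped between genotypes.

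The order of the cell types differed between genes. In controls Csf1r was highest in microglia (2163 CPM), then in CAMs (1408 CPM) and in T cell-like cells (914 CPM), and the ranges over mice of these 3 did not overlap. In Arpc4ΔCx3cr1 mice CAMs (1264 CPM) and microglia (1207 CPM) overlapped at the top. Csf2ra was highest in control monocytes (189 CPM) and CAMs (121 CPM), which overlapped with each other and lay above microglia (65.0 CPM), whereas in Arpc4ΔCx3cr1 mice microglia (145 CPM) and monocytes (135 CPM) overlapped. Csf3r was highest in microglia of both genotypes, without overlap with the next cell type. Granulocytes were left out of this order, since only 1 mouse per genotype held enough of them. In cells thinned to 1000 UMIs, 25.7% of control and 22.2% of Arpc4ΔCx3cr1 granulocytes held a Csf3r UMI, against 25.3% and 31.2% of microglia. Unthinned, the shares were 71.4% and 80.0% of granulocytes and 64.8% and 73.1% of microglia, which had fewer UMIs per cell. The 8 granulocyte markers alone took 442456 and 466319 CPM of the control and Arpc4ΔCx3cr1 granulocyte sums. Less of the depth was left for other genes, so these shares do not rank Csf3r in granulocytes against microglia. Csf1 was at 10.2 to 16.9 CPM in control microglia, monocytes, T cell-like cells and CAMs, each overlapping with the next in this order, and in Arpc4ΔCx3cr1 mice it was highest in microglia (136 CPM), which overlapped with myeloid progenitor-like cells (72.1 CPM). The latter level rests on 6 to 15 UMIs per mouse. That class was mixed, since Top2a, Ube2c and Stmn1, markers of proliferating cells, were among its leading genes beside progenitor markers. Csf2rb was at similar levels in monocytes, microglia and CAMs of both genotypes, with overlapping ranges.

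T cell-like cells held UMIs of microglia markers and of Csf1r, which they should lack, and of Csf1 and Csf2ra, at levels that differed between genotypes. Their sums held 5998 to 6980 CPM of microglia markers in control and 2446 to 4001 CPM in Arpc4ΔCx3cr1 mice, with Csf1r at 1075, 900.3, 771 and 909 CPM and at 357, 530.3, 339.8 and 465 CPM. Csf1 in these sums was at 6.54 to 17.1 CPM in control and 29.6 to 79.9 CPM in Arpc4ΔCx3cr1 mice. Csf2ra was at 17.1 to 26.2 and 51.7 to 60.4 CPM, and the groups of mice did not overlap for either gene. The same sums held natural killer cell markers at 956 to 1878 CPM in control and 1450 to 3066 CPM in Arpc4ΔCx3cr1 mice. All mice were pooled in 1 suspension, and the source of the Csf1 and Csf2ra UMIs in T cell-like cells was not tested. Droplets with at most 100 UMIs held 1509 CPM of Csf1r, 65.3 CPM of Csf1, 167 CPM of Csf2ra, 45.3 CPM of Csf2rb, 17.7 CPM of Csf2rb2 and 232 CPM of Csf3r. When 10% of each microglia sum was taken off in the profile of these droplets, the log2 fold changes in microglia were −0.81 for Csf1r, 3.78 for Csf1, 1.54 for Csf2ra and 0.56 for Csf3r, and all 4 passed.

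**Figure D5:**
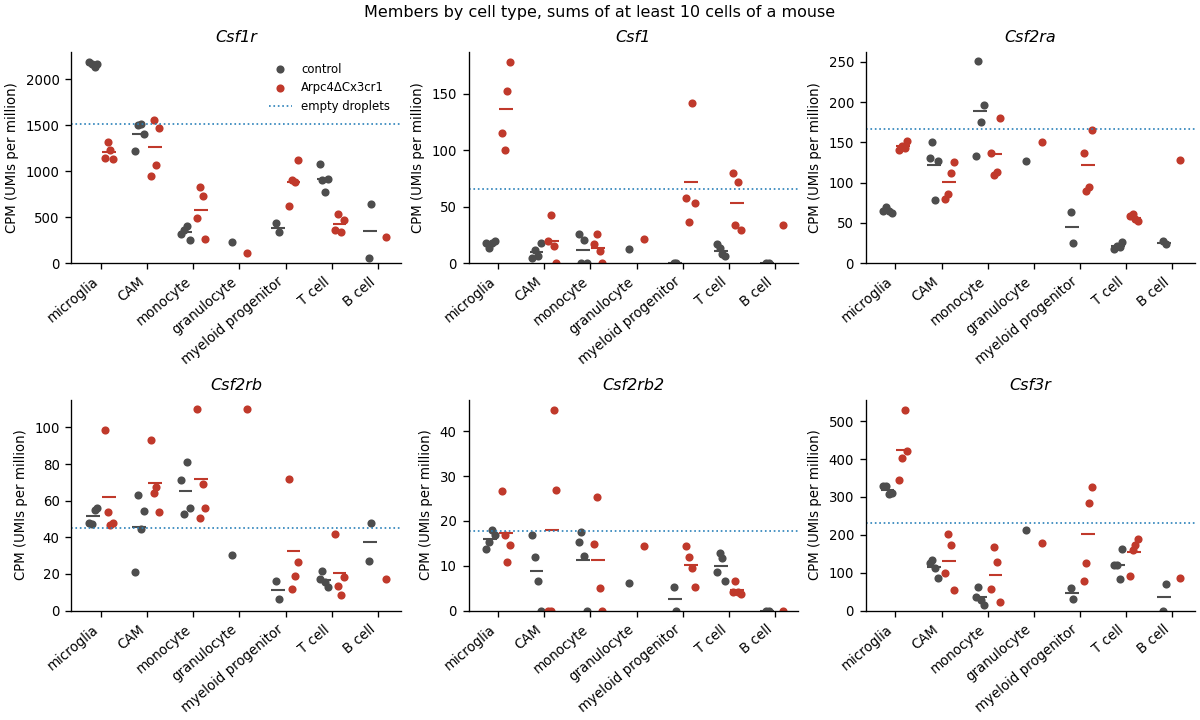
Level of the genes in CPM (y axis, linear, from 0) in the sums of each cell type (x axis) of mice with at least 10 cells of the type, 1 point per mouse, colored by genotype, with bars at the means and a dotted line at the level in droplets of at most 100 UMIs. Csf1r and Csf3r of control mice are highest in microglia, and Csf2ra of control mice is higher in monocytes and CAMs than in microglia.

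Over the 43 sums of a mouse and a cell type, from 7 cell types, the genes most like each member were found by Pearson's correlation of log2(CPM + 10) among 11151 genes, as a description. The sums share 1 library. Among the genes most like Csf1r were Rab14 (r = 0.941) and Cyfip1 (0.940), and Csf1 was most like St8sia6 (0.815), Acaca (0.814) and Olfr111 (0.805). Csf2ra was most like Cybb (0.778), the catalytic subunit of the phagocyte oxidase, Ifitm3 (0.727) and Alcam (0.713). The nearest genes were Tpd52 (0.785), Pirb (0.751) and Snx20 (0.736) for Csf2rb, Naip2 (0.671), Gm28403 (0.640) and Wrb (0.614) for Csf2rb2, and Pag1 (0.854), Vps54 (0.847) and Sipa1l2 (0.843) for Csf3r.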

How the data were processed

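Reads were mapped by the authors to mm10 using Cell Ranger (version 6.1.2 in the submitters' processing notes, while the paper names another), and the deposited values are raw UMI counts per gene and cell, without normalization or removal of ambient RNA, in 1 table per tagged mouse. Multiplexing tags were kept out of totals. The 7 genes and the gene lists were chosen with earlier results of these data known. Cells were clustered with Seurat 5.3.0 (10000 variable genes without the 7 members, 20 components, 20 neighbors, resolution 0.8), and clusters were named from marker lists by limits set after they were seen. A cluster stayed unnamed if it had fewer than 3 of its markers raised. It also stayed unnamed if its cells had a median of UMIs below 1 part in 3 of their mice's and none of its markers was among its 10 leading genes. The unnamed clusters had 10 and 9 of the microglia markers raised over B cell-like and granulocyte-like cells. Tags serve to remove doublets between mice, but a mouse's own tag was the highest in 98.9 to 100.0% of its cells. Cells with another tag highest were kept, and no caller was run for doublets within a mouse. UMIs were summed per mouse and cell type with at least 10 cells and tested in R 4.3.3 by the quasi-likelihood method of edgeR 4.0.16, after filterByExpr and TMM scaling, with Benjamini-Hochberg adjustment over all genes tested and a threshold of 0.05, with DESeq2 1.42.0 as an alternative. The fit was first checked on simulated data in which far fewer genes changed, as many up as down. That check does not cover the scaling or error rate where so many genes differ. Printed CPM are scaled by total UMIs alone. Mice are the replicates, and p-values rest on 4 of them per genotype from 1 library. Beside the 7 members and Arpc4, the text names up to 3 rises and 3 falls per list, largest among genes that passed with at least 10 CPM in a genotype, and the 3 genes most like each member, and 2 genes that this rule names are not reported here. Sequences are from RefSeq. Depth per sum sets the smallest detectable level, given as 3 UMIs of the sum's total.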

Additional observations from a re-analysis of the deposited data

Results flagged for a closer look

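Csf2rb in microglia of Arpc4ΔCx3cr1 mouse 1 was at 98.5 CPM, against 46.9 to 54.0 CPM in the other 3 mice of the genotype. It was the only mouse far from the rest of its group among 37 groups of 4 mice examined, and chance gives about 1 such mouse in 20 groups. The difference of the genotype effect between CAMs and microglia passed its own test for Csf2ra (−1.53, adjusted p = 3.23e-06, edgeR) and for Csf1 (−2.25, adjusted p = 0.0188, edgeR), where the effect in CAMs was the lower for both genes. The call of Csf1 rests on 21 UMIs in CAMs and was lost in 5 of 12 alternatives (adjusted p up to 0.190). That of Csf2ra rests on 8 to 15 UMIs in CAMs of each Arpc4ΔCx3cr1 mouse.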

How the results depend on the processing

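In microglia 4 genes passed under each of the 17 alternatives, in the same direction. These were DESeq2, no filter, the replicate block, each mouse left out, 10% ambient RNA taken off, stricter cells, resolution 0.4 and, chosen after seeing the data, the low-UMI clusters added, the Ms4a7-led cluster left out and scaling by total UMIs. Stricter limits on cells left microglia all but the same. Without Arpc4ΔCx3cr1 mouse 1 Csf2rb2 turned to −0.10 (−0.10 to 0.36 over mice left out). In CAMs 2 genes passed at resolution 0.4, where Csf2ra turned to 0.47. In monocytes 1 gene, Csf3r (1.20, adjusted p = 0.0470), passed with the replicate block, where Csf2rb turned to −0.05, and 0 to 1 passed with a mouse left out (Csf2rb −0.28 to 0.24). For the difference between CAMs and microglia, 1 gene passed without the mouse block, 1 to 2 with a mouse left out (Csf2rb2 −0.39 to 1.71) and 3 with scaling by total UMIs, which added Csf1r (0.66, adjusted p = 0.0150), while Csf3r turned to 0.22 at resolution 0.4. Where not named, the cause was not tested. The highest Csf1 mean of a microglia cluster was 184 CPM at resolution 0.3, and 18.1% of Arpc4ΔCx3cr1 microglia held a Csf1 UMI when thinned to 2000 UMIs. The alternatives for granulocytes were not run, since 1 mouse per genotype left no test. Replicate numbers share no stated origin, the correlations of same-numbered mice were −0.08 to −0.01 over 8853 genes, and the block changed no other call of a member.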
